A study of Mus musculus with 8 samples.

Results

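Endothelin-1, adrenomedullin and angiotensin-converting enzyme are signals, or makers of signals, that set the tone of small vessels. The 9 genes described here encode these peptides, the enzymes that process them and the receptors that read them: Edn1, Ece1, Ednra, Ednrb, Adm, Calcrl, Ramp2, Ramp3 and Ace. They were chosen by gene symbol, and all 9 stood among the 17326 gene lines of the deposited table that held a count for each of the 8 libraries. RNA came from mouse kidney cells that had been separated by flow cytometry into glomerular endothelium and podocytes, and each cell type was taken from EMCN+/+ mice (wild type) and EMCN-/- mice (knockout), homozygous for loss of the gene for endomucin, a sialomucin of the endothelial surface. Each of the 4 groups had 2 libraries, with the numbers 2 and 3 in their titles, which are called replicates 2 and 3 here. Strain, age, sex, the sorting markers and the number of animals behind a library were not given in the sources used here, so p-values measure the spread between these libraries, which may be technical in part.

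Endothelin-1 is secreted mainly by endothelium, is cut from a longer precursor by endothelin-converting enzyme, and is among the strongest vasoconstrictors known. Its type A receptor, on smooth muscle and mesangial cells, drives contraction, while the type B receptor of endothelium releases nitric oxide and clears the peptide. Adrenomedullin is a vasodilator that also tightens the endothelial barrier, and it binds the calcitonin receptor-like receptor, which needs a receptor activity-modifying protein (RAMP) as its partner. Angiotensin-converting enzyme makes angiotensin II and degrades bradykinin, and in the kidney it is known both from endothelium and from the brush border of the proximal tubule.

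The genes lie on 7 chromosomes of the mouse genome (GENCODE M21 on GRCm38, which the mm10 name in the submitters' processing notes also denotes). Edn1, the endothelin-1 precursor (Entrez 13614), lies at chr13:42301476-42307990 on the plus strand. Ece1, the converting enzyme (Entrez 230857), lies at chr4:137862237-137965229, plus. The type A receptor gene Ednra (Entrez 13617) lies at chr8:77663031-77724464, minus, and the type B receptor gene Ednrb (Entrez 13618) at chr14:103814625-103844402, minus. Adm, the adrenomedullin precursor (Entrez 11535), lies at chr7:110627661-110629820, plus. Calcrl, its receptor (Entrez 54598), lies at chr2:84330626-84425411, minus. Chromosome 11 holds the RAMP genes and Ace: Ramp2 (Entrez 54409) at chr11:101246028-101259546, Ramp3 (Entrez 56089) at chr11:6658521-6677475 and Ace (Entrez 11421) at chr11:105967945-105989964, all plus. Ednrb and Calcrl overlap no other annotated gene. Ramp2 overlaps the protein-coding gene Vps25 on the same strand, where strand cannot separate the reads. Each of the other 6 overlaps a transcript on the opposite strand. Reads in those 6 overlaps may be assigned either way because the use of strand was not given. Vps25 stood at 198 CPM in wild-type endothelium and 204 CPM in wild-type podocytes, without the difference seen in Ramp2 below.

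Promoter windows were taken from RefSeq (GRCm38.p6) for 8 of the 9 genes, Ramp2 having no entry. The 4 windows shown are those of both peptide genes, Edn1 (high in endothelium) and Adm (high in podocytes), and of the adrenomedullin receptor genes Calcrl and Ramp3 (high in endothelium). Each is the 250 bases before the transcript start, 5′ to 3′ on the gene's strand, and capitals mark the letters GGAAG or CTTCC (the core bound by ETS factors) and CACCC or GGGTG (the core bound by Kruppel-like factors), which did not overlap each other in any window of these genes.
Edn1, chr13:42301226-42301475, plus: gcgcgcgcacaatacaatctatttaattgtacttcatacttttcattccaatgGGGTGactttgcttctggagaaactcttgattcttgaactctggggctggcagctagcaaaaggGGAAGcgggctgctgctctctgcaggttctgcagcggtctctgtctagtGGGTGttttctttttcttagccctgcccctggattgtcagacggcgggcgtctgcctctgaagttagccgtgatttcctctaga
Calcrl, chr2:84425267-84425516, minus: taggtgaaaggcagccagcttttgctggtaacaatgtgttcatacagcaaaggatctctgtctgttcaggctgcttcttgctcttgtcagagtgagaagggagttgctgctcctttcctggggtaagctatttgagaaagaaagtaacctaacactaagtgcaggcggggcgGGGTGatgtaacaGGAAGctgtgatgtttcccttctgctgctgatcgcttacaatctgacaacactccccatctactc
Ramp3, chr11:6658283-6658532, plus: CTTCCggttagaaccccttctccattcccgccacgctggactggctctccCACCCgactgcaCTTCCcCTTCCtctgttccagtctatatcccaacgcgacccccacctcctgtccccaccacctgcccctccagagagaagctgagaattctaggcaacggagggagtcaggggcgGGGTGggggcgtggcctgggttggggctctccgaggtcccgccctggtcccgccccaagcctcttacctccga
Adm, chr7:110627407-110627656, plus: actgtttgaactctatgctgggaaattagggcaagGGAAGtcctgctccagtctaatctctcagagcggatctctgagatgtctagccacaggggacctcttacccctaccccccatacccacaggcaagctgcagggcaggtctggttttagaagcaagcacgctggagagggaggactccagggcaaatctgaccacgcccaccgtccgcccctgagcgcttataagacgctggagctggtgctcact
The Edn1 window held the ETS letters at 1 place and the KLF letters at 2 places, the Calcrl window 1 of each, and the Ramp3 window 3 and 2. The Adm window held the ETS letters once, 215 bases before the start, and the KLF letters nowhere. Over the 12 windows of the 8 genes (Ece1 has 4 starts and Ace 2), 8 held the ETS letters and 9 the KLF letters. These letters are common, being present in 64.1% and 52.0% of all 32851 windows of this length in the table, and a match is not evidence of binding. The hypoxia core ACGTG, found in 16.6% of all windows on either strand, occurred in 1 of these windows, at the third start of Ece1.

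The libraries held between 10478956 and 17386042 counts on complete lines, and the 9 genes had between 27 (Ace in replicate 2 of wild-type podocytes) and 9416 counts (Ece1 in replicate 2 of knockout endothelium). Mitochondrial genes took from 10.1% (replicate 2 of knockout endothelium) to 26.2% (replicate 3 of wild-type endothelium) of the counts. In each group their share was higher in replicate 3. Levels are given as CPM, with library sizes scaled by edgeR's TMM method. The TMM factors ran from 0.836 (replicate 3 of wild-type endothelium) to 1.27 (replicate 2 of knockout endothelium). Emcn, which checks the genotype labels, measured 1972 and 1828 CPM in the endothelial libraries of wild type and 173 and 179 CPM in those of the knockout, in the direction of the labels. Of 14 endothelial markers, 13 were higher in endothelium than in podocytes in wild type and 1, Cldn5, was lower, and all 9 podocyte markers on complete lines (of 14 listed) were lower, by edgeR at an adjusted p under 0.05. Pecam1 averaged 891 CPM in wild-type endothelium against 38.0 CPM in wild-type podocytes, and Kdr 1484 against 63.1 CPM. Nphs1, Pdgfrb and Ptprc stood on lines that were not complete and were not analysed here. Replicate 2 of knockout podocytes stood apart in proximal tubule RNA: its 6 proximal tubule markers on complete lines (of 11 listed) summed to 11505 CPM, against 3040.5 to 5427 CPM in the other podocyte libraries and 946 to 1910 CPM in endothelium. Its 5 distal tubule and collecting duct markers on complete lines (of 10 listed) summed to 5194 CPM, the lowest of the podocyte libraries, against 5545 to 12074 CPM.

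The endothelin genes other than Ednra were far more abundant in endothelium. Edn1 stood at 133 and 98.1 CPM in wild-type endothelium (replicates 2 and 3), at 119 and 66.9 in knockout endothelium, at 11.4 and 11.9 in wild-type podocytes and at 17.8 and 16.0 in knockout podocytes. All 4 endothelial libraries lay above all 4 podocyte libraries, and the lowest of them was replicate 3 of the knockout. Ece1 stood at 644 and 498 CPM in wild-type endothelium, 664 and 526 in knockout endothelium, 86.5 and 73.4 in wild-type podocytes and 92.3 and 60.1 in knockout podocytes. All 4 endothelial libraries lay above all 4 podocyte libraries here too, and the genotypes overlapped.

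Ednrb, the endothelial receptor that clears the peptide, had nearly the same level in both genotypes of endothelium. Its values were 189 and 211 CPM in wild-type endothelium and 178 and 225 CPM in knockout endothelium, against 12.96 and 20.54 CPM in wild-type podocytes and 29.4 and 18.1 CPM in knockout podocytes. Ednra, the contractile receptor, was scarce everywhere, at 8.28 and 6.01 CPM in wild-type endothelium, 5.57 and 4.30 in knockout endothelium, 8.68 and 13.9 in wild-type podocytes and 21.1 and 5.68 in knockout podocytes. Its highest value came from replicate 2 of knockout podocytes, the library with the most proximal and the least distal tubule marker RNA among podocyte libraries, where the 8 mesangial and mural markers on complete lines (of 12 listed) also had their highest sum, 1307 CPM against 514 to 987 CPM in the other podocyte libraries. The part of any of these in the Ednra value was not tested.

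Of the adrenomedullin genes, the peptide was higher in podocytes, and Calcrl and its RAMP partners were higher in endothelium. Adm stood at 88.4 and 72.5 CPM in wild-type endothelium, 54.7 and 51.1 in knockout endothelium, 352 and 275 in wild-type podocytes and 159 and 157 in knockout podocytes. The 4 groups did not overlap, and their order was wild-type podocytes, knockout podocytes, wild-type endothelium and knockout endothelium. Calcrl stood at 384 and 205 CPM in wild-type and 239 and 219.5 CPM in knockout endothelium, but at 17.05 and 21.49 CPM in wild-type and 15.4 and 23.6 CPM in knockout podocytes. Replicate 2 of wild-type endothelium was the high library, and the other 3 endothelial libraries lay close together.

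Ramp2, the partner that gives the receptor its main affinity for adrenomedullin, stood at 225 and 198 CPM in wild-type endothelium, 256 and 186 in knockout endothelium, 14.6 and 11.7 in wild-type podocytes and 16.6 and 12.4 in knockout podocytes. Ramp3, the alternative partner, stood at 60.9 and 75.8 CPM in wild-type endothelium, 67.1 and 79.9 in knockout endothelium, 3.24 and 2.98 in wild-type podocytes and 2.05 and 4.79 in knockout podocytes. For both partners all 4 endothelial libraries lay above all 4 podocyte libraries, and the genotypes overlapped. Ace was low in every library, at 21.4 and 13.3 CPM in wild-type endothelium, 26.3 and 14.97 in knockout endothelium, 1.75 and 4.72 in wild-type podocytes and 6.09 and 5.31 in knockout podocytes.

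**Figure D1:**
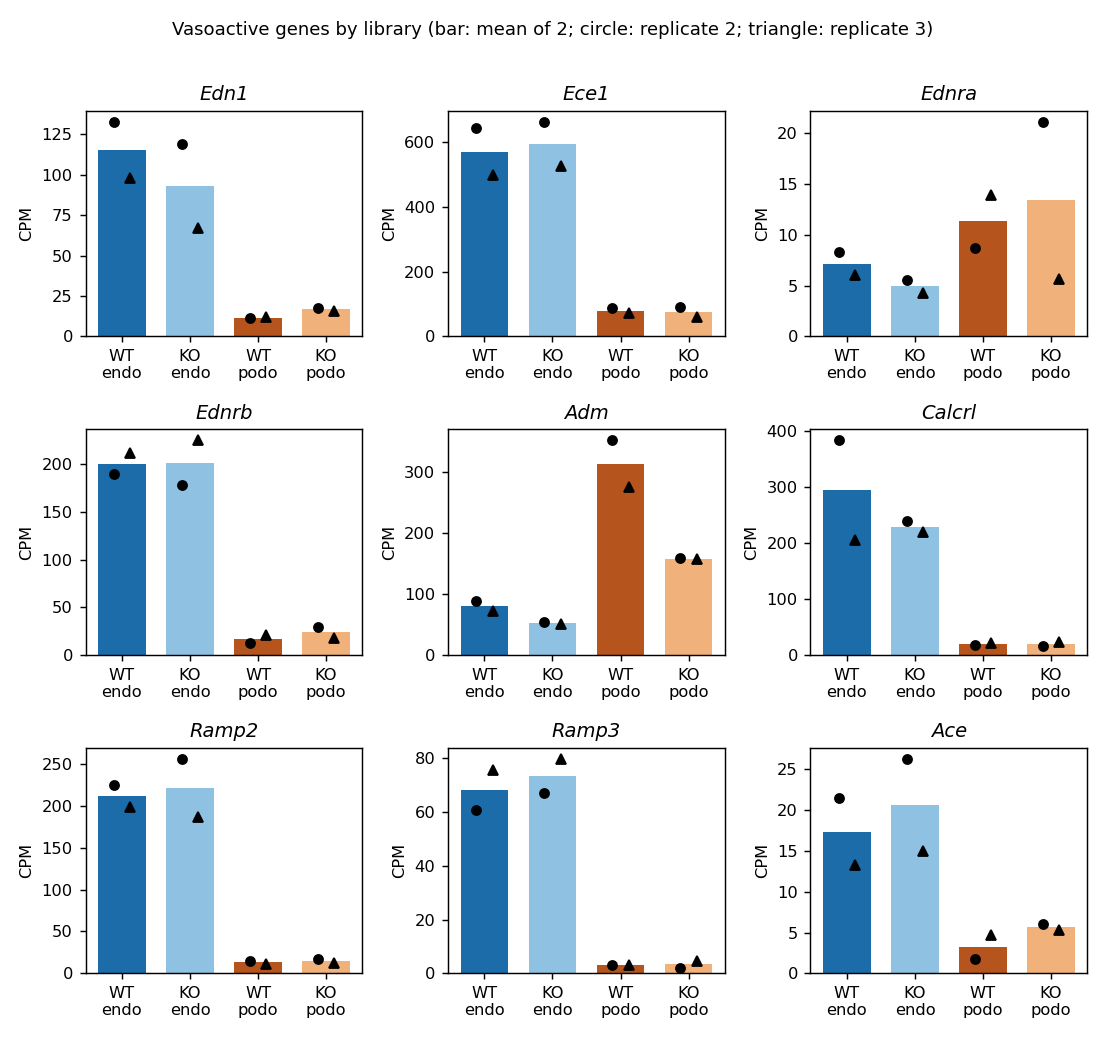
Level in CPM (y axis, linear from 0) of each of the 9 genes in the 4 groups, with bars for the mean of 2 libraries, circles for replicate 2 and triangles for replicate 3. Adm is highest in wild-type podocytes, at 352 and 275 CPM, Ednra stays at or under 21.1 CPM in every library, and the other 7 genes are higher in all 4 endothelial libraries than in any podocyte library. The share of all genes with this separation over both genotypes was not computed. Within a genotype, 21.2% (wild type) and 27.3% (knockout) of all genes tested were higher in endothelium without overlap.

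Levels were compared between genes per kilobase of the longest protein-coding transcript. On this scale Ramp2 was the most abundant of the 9 in wild-type endothelium, at 179.5 ± 16.1 CPM per kilobase (SD, n = 2), and Ece1 was next with 119 ± 21.5 (SD, n = 2). Calcrl, Adm, Ramp3, Edn1 and Ednrb came next, between 60.3 and 48.8 CPM per kilobase, and each overlapped its neighbour in the order. Ace (3.54 ± 1.17, SD, n = 2) and Ednra (1.97 ± 0.44, SD, n = 2) were lowest. In wild-type podocytes Adm led at 226 ± 39.2 CPM per kilobase (SD, n = 2), and the next gene, Ece1, stood at 16.6 ± 1.92 (SD, n = 2). With the median transcript length instead, Ece1 rather than Ramp2 led in wild-type endothelium, with 785 against 319.7 CPM per kilobase.

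Ratios within a library do not depend on how libraries are scaled to each other. Per kilobase, Ednrb exceeded Ednra 20.2-fold and 31.0-fold in wild-type endothelium and 28.2-fold and 46.2-fold in knockout endothelium. In podocyte libraries the ratio was 1.32 and 1.30 in wild type and 1.23 and 2.81 in knockout. Ramp3 made up 20.6% and 26.8% of the summed Ramp2 and Ramp3 level in wild-type endothelium and 20.02% and 29.06% in knockout endothelium, and the genotypes overlapped. This share is lower with the median transcript length. In wild-type endothelium that length put Ramp2 at 319.7 rather than 179.5 CPM per kilobase and left Ramp3 at 55.4. The ratio of Adm to Edn1 per kilobase was 1.02 and 1.14 in wild-type endothelium, 0.707 and 1.17 in knockout endothelium, 47.5 and 35.6 in wild-type podocytes and 13.7 and 15.1 in knockout podocytes. Thus this ratio was lower in both knockout podocyte libraries, where Adm was lower and Edn1 higher than in wild type.

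**Figure D2:**
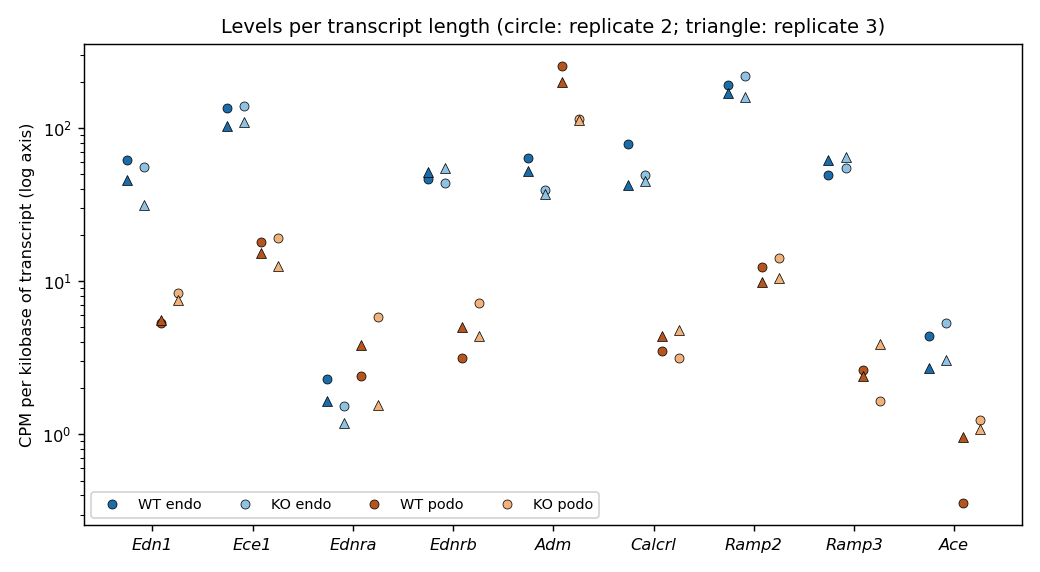
CPM per kilobase of the longest transcript (y axis, log scale) for the 9 genes, with colours for the 4 groups, circles for replicate 2 and triangles for replicate 3. Ramp2 and Ece1 are highest in endothelium, Adm is highest in podocytes, and Ednra and Ace are the lowest in endothelium, at means of 1.97 and 3.54 CPM per kilobase in wild type.

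The comparison of endothelium with podocytes gave the size of this division within each genotype, from the same libraries. In wild type 8 of the 9 genes differed by edgeR's quasi-likelihood test at an adjusted p under 0.05, with 7 higher and 1, Adm, lower in endothelium. Over all 16477 genes tested, 8.99% were called, 4.26% as higher and 4.73% as lower in endothelium. The genes were picked with earlier results of these data known, so their share is a description. All 9 had groups that did not overlap, as did 46.9% of all genes tested (21.2% higher and 25.7% lower). At an unadjusted p under 0.05 there were 8 of the 9, against 19.6% of all genes. The median log2 fold change over the 9 genes was 3.31, against −0.01 over all genes tested.

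Among the endothelin genes, Ednrb was 12-fold higher in wild-type endothelium (log2 fold change 3.58, SE 0.33, edgeR adjusted p 9.79e-05). Edn1 was 9.9-fold higher (3.31, SE 0.32, edgeR adjusted p 0.000126) and Ece1 7.15-fold higher (2.84, SE 0.29, edgeR adjusted p 0.00018). Ednra did not pass, at a log2 fold change of −0.66 with a 95% interval of −1.90 to 0.58 (edgeR adjusted p 0.611). The adrenomedullin receptor genes had the largest differences of the 9. Ramp3 was 21.9-fold higher (4.45, SE 0.39), Ramp2 16.1-fold higher (4.01, SE 0.28) and Calcrl 15.3-fold higher (3.93, SE 0.36), and their adjusted p-values by edgeR were 7.83e-05, 3.75e-05 and 9.27e-05. Adm was 3.9-fold lower in endothelium (−1.96, SE 0.23, edgeR adjusted p 0.00033). Ace was 5.38-fold higher in endothelium (2.43, SE 0.51, edgeR adjusted p 0.0121), and this call was lost without replicate 2 of wild-type endothelium (2.05, edgeR adjusted p 0.0736) or without replicate 2 of wild-type podocytes (1.89, 0.0965). Without replicate 3 of wild-type podocytes the log2 fold change of Ace was 3.30. The Ace values in podocytes rest on 27 and 65 counts.

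In knockout mice the same 8 genes were called, in the same directions, where 10.4% of all genes tested were called (4.28% higher and 6.09% lower). Again all 9 had groups that did not overlap, against 55% of all genes tested (27.3% higher and 27.8% lower), and 9 of the 9 had an unadjusted p under 0.05, against 22.9%. With libraries scaled by their size alone, 60.6% of all calls in knockout were higher in endothelium, against 41.3% with TMM, and the 8 calls kept their directions. Ramp3 was 21.6-fold, Ramp2 15.2-fold, Calcrl 11.8-fold, Ednrb 8.47-fold, Ece1 7.81-fold and Edn1 5.5-fold higher in knockout endothelium, with edgeR adjusted p-values between 3.36e-05 and 0.000568. The log2 fold change of Ramp3, 4.43, rested on 33 and 65 counts in knockout podocytes and ranged from 3.93 without their replicate 2 to 5.15 without their replicate 3. Adm was 2.99-fold lower (log2 fold change −1.58, SE 0.23, edgeR adjusted p 0.00138). Ace was 3.62-fold higher (1.86, SE 0.49, edgeR adjusted p 0.0376), a call lost without replicate 2 of knockout endothelium (1.39, edgeR adjusted p 0.264) or without replicate 2 or 3 of knockout podocytes (1.95, edgeR adjusted p 0.135, and 1.75, 0.12). Ednra had a log2 fold change of −1.44 (SE 0.57, edgeR adjusted p 0.157), which became −2.10 (edgeR adjusted p 0.0161) without replicate 3 of knockout podocytes and −0.21 without replicate 2 (0.915). Whether the cell type difference of a gene changed with genotype is the interaction given further on.

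**Figure D3:**
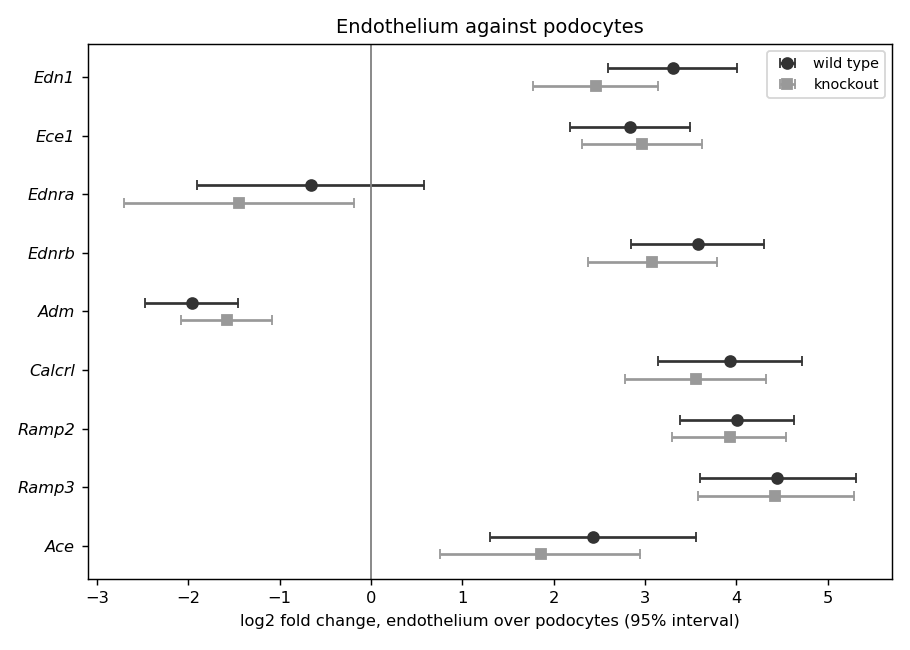
Log2 fold change of endothelium over podocytes (x axis) for the 9 genes, in wild type (dark circles) and knockout (grey squares), with bars for the 95% interval. Adm and Ednra lie to the left of 0 and the other 7 genes to the right, and only the wild-type interval of Ednra crosses 0.

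Sorted libraries hold some RNA of other cells, and the endothelial markers give the scale of endothelial RNA, not of tubule RNA, in podocyte libraries. Tubule RNA was present in endothelium too. There the 5 distal tubule and collecting duct markers summed to 6929 and 15234 CPM in wild type and 2802 and 6594.5 CPM in knockout. The 14 endothelial markers summed to 10114 and 8785 CPM and to 9286 and 7696 CPM in the same libraries. In wild type the podocyte level of the 13 endothelial markers other than Cldn5, which podocytes also make, was between 2.89% (Emcn) and 24.8% (Vwf) of the endothelial level, and over all 14 the median was 5.89%. Ramp3 stood at 4.55%, Ramp2 at 6.21%, Calcrl at 6.54%, Ednrb at 8.37%, Edn1 at 10.1%, Ece1 at 14.0% and Ace at 18.6% of the endothelial level. All 7 lay within the range of the 13 markers, but Ece1 lay above 11 of them and Ace above 12, with Vwf and Erg above Ece1 and Vwf above Ace. Podocyte transcripts of these genes and RNA of endothelial cells cannot be told apart in these libraries. In knockout the corresponding values were 4.65% for Ramp3, 6.56% for Ramp2, 8.51% for Calcrl, 11.8% for Ednrb, 12.8% for Ece1, 18.2% for Edn1 and 27.6% for Ace, against 1.99% (Robo4) to 30.3% (Vwf) for the markers and a median of 5.32% over all 14. There Ednrb, Ece1 and Edn1 each lay above 11 of the 13 markers and Ace above 12. In the other direction, Adm in wild-type endothelium stood at 25.6% of its podocyte level, and the 9 podocyte markers at between 7.03% (Synpo) and 45.3% (Actn4), with a median of 10.5%. In knockout Adm stood at 33.5% and the podocyte markers at 7.33% (Cdkn1c) to 53.4% (Actn4), with a median of 12.9%. The endothelial level of Adm was thus within the range of the podocyte markers, above 6 of the 9 in wild type and 7 of the 9 in knockout.

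**Figure D4:**
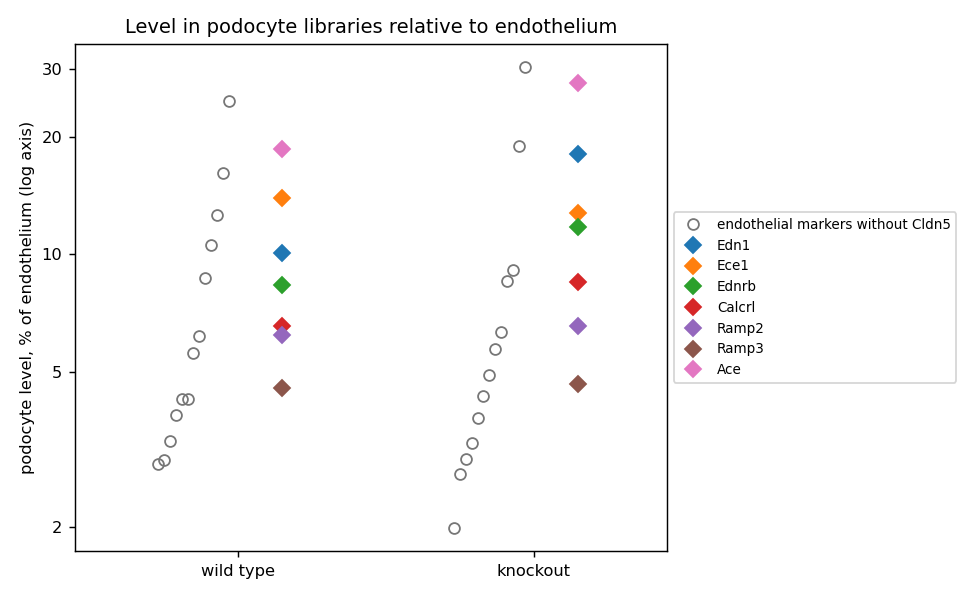
Mean level in podocyte libraries as a percentage of that in endothelium (y axis, log scale), for 13 endothelial markers (open circles) and the 7 vasoactive genes that were higher in endothelium (diamonds), in wild type and knockout. Ramp3 is lowest of the 7, at 4.55% and 4.65%, Ace is highest, at 18.6% and 27.6%, and all lie between the lowest and the highest marker.

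None of the 9 genes passed the threshold between knockout and wild-type endothelium. By edgeR 0 were called at an adjusted p under 0.05, where 0.00607% of all genes tested (1 gene, Emcn) was called. Even Emcn, at a log2 fold change of −3.43, lost its call with libraries scaled by size alone (edgeR adjusted p 0.0835). The same held among genes with a mean of at least 5 CPM (edgeR adjusted p 0.0797), so a gene without a call may still differ. DESeq2 and limma voom also called 0 of the 9. At an unadjusted p under 0.05 there was 1 of the 9, Adm, against 5.49% of all genes. The median log2 fold change over the 9 genes was 0.01, the same as over all genes.

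In endothelium Adm was 1.52-fold lower in knockout, with a log2 fold change of −0.60 (SE 0.22, 95% interval −1.10 to −0.11, edgeR adjusted p 0.716). Over the alternatives it lay between −0.75 and −0.29, with adjusted p-values of 0.47 to 1. The smallest size, −0.29 (SE 0.27), came with libraries scaled by size alone, which put the median of all genes at 0.33. Its knockout libraries (54.7 and 51.1 CPM) lay below both wild-type libraries (88.4 and 72.5 CPM). Adm and Ednra were the 2 of 9 genes whose groups did not overlap, both lower in knockout, while 44.5% of all genes tested had groups that did not overlap and 19.7% were lower in that way. Of the genes that respond to tissue dissociation, 0 of 19 on complete lines (of 20 listed) passed by edgeR, DESeq2 or limma voom and 9 had an unadjusted p under 0.05. All 19 had negative log2 fold changes, with a median of −0.80 and summed levels of 45013 and 52314 CPM in wild-type against 28191 and 36282 CPM in knockout endothelium. Relative to that sum, Adm stood at 0.196% and 0.139% in wild type and 0.194% and 0.141% in knockout, values that overlapped. Relative to the summed podocyte markers it stood at 1.98% and 2.45% in the wild-type and at 1.69% and 1.76% in the knockout libraries, values that did not overlap. The median log2 fold change was −0.33 over the 9 podocyte markers and −1.08 over the 5 distal tubule and collecting duct markers, and 0 of either list passed, with 0 and 1 at an unadjusted p under 0.05. The part of these in the Adm value was not tested.

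For the other genes the intervals show what could have been missed in endothelium. The log2 fold change was 0.01 for Ednrb (95% interval −0.64 to 0.66), 0.06 for Ece1 (−0.55 to 0.67), 0.07 for Ramp2 (−0.48 to 0.61) and 0.10 for Ramp3 (−0.61 to 0.82). Edn1 had a value of −0.31 (−0.95 to 0.32) that rested on replicate 3 of the knockout, without which it was 0.04. Calcrl had a value of −0.36 (−1.06 to 0.34) that rested on replicate 2 of wild type, without which it was 0.15. Ednra (−0.53, −1.79 to 0.73) and Ace (0.25, −0.80 to 1.30) had wide intervals at their low counts. The edgeR adjusted p-values of these 8 genes lay between 0.751 and 0.993.

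In podocytes 0 of the 9 genes passed either, by edgeR, DESeq2 or limma voom, where edgeR again called 0.00607% of all genes tested. At an unadjusted p under 0.05 there was 1, Adm, against 4.43% of all genes. The median log2 fold change over the 9 genes was 0.15, against 0.02 over all genes. Adm had rank 10 of the 16477 genes when ordered by p, with a 1.99-fold lower level in knockout, a log2 fold change of −0.99 (SE 0.22, 95% interval −1.48 to −0.50, unadjusted p 0.00112) and an edgeR adjusted p of 0.978. Over the alternatives the log2 fold change lay between −1.16 and −0.78, and the adjusted p between 0.305 (DESeq2) and 1. The knockout libraries, at 159 and 157 CPM, lay below the wild-type ones, at 352 and 275 CPM.

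Of the 9 podocyte markers, 0 passed in podocytes and 1 had an unadjusted p under 0.05. All 9 had negative log2 fold changes there, with a median of −0.62, and summed to 22885 and 15468 CPM in wild-type against 11437 and 13114 CPM in knockout podocytes. In such bulk libraries, fewer podocytes in the sort and less RNA per podocyte cannot be told apart. Relative to that sum, Adm stood at 1.54% and 1.78% in wild type and 1.39% and 1.20% in knockout podocytes, a set of values that did not overlap but lay closer together than the CPM. The dissociation genes had a median of −0.13 in podocytes, with 13 of 19 below 0 and 0 called. Relative to their sum Adm stood at 0.715% and 0.670% in wild type and 0.394% and 0.456% in knockout podocytes, values that did not overlap. The part of the sort in the Adm value was not tested beyond these measurements.

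Edn1 and Ace were the genes with groups apart in the other direction in podocytes, and with Adm they made 3 of 9, where 31.2% of all genes tested had groups that did not overlap. Edn1 was 1.45-fold higher in knockout podocytes (log2 fold change 0.53, 95% interval −0.13 to 1.20, edgeR adjusted p 0.978). Ace was 1.77-fold higher (0.82, −0.29 to 1.94, edgeR adjusted p 0.978), and Ednrb had a value of 0.51 (−0.16 to 1.18), with overlapping groups. Ednra, at 0.25 (−0.97 to 1.47), turned to −1 without replicate 2 of knockout podocytes and to −0.01 without replicate 2 of wild-type podocytes. Replicate 2 of knockout podocytes also held the highest podocyte value of Ace, Ednrb and Edn1, and the 6 proximal tubule markers had a median log2 fold change of 0.84 by genotype. The part of proximal tubule RNA in these values was not tested. Without this knockout library the values were 0.72 for Ace, 0.11 for Ednrb and 0.45 for Edn1. Over all fits without 1 library, Ace ranged from 0.30 (without replicate 2 of wild-type podocytes) to 1.70 (without their replicate 3), Ednrb from 0.11 to 0.87 (also without their replicate 3) and Edn1 from 0.45 to 0.61. Ece1 (−0.07, −0.68 to 0.54), Calcrl (0.02, −0.70 to 0.74), Ramp2 (0.15, −0.43 to 0.72) and Ramp3 (0.12, −0.71 to 0.96) had intervals around 0.

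**Figure D5:**
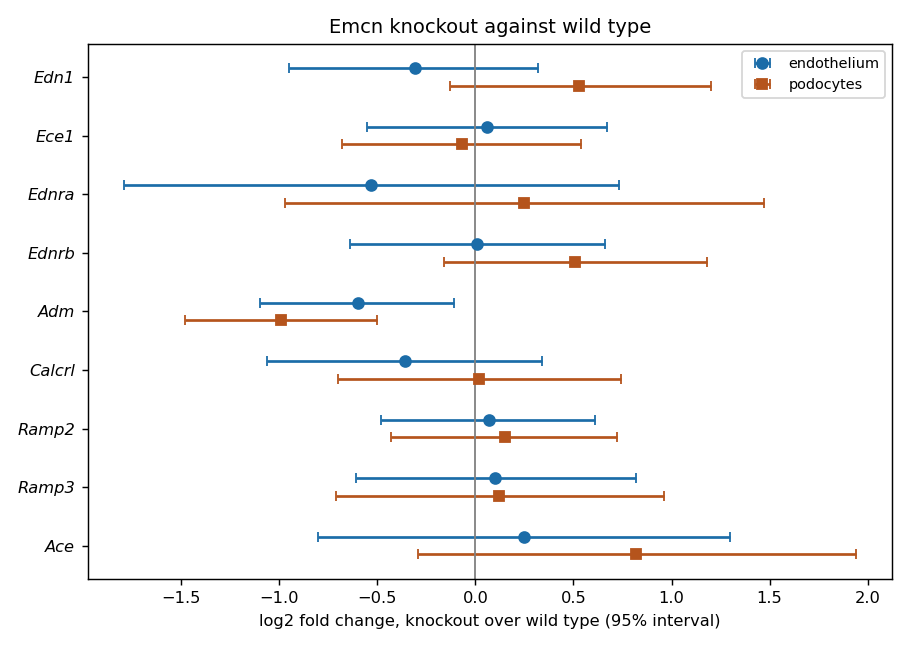
Log2 fold change of knockout over wild type (x axis) for the 9 genes in endothelium (blue circles) and podocytes (brown squares), with bars for the 95% interval. The intervals of Adm lie below 0 in both cell types before adjustment over all genes, and those of the other 8 genes include 0.

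Whether knockout had unlike effects in endothelium and podocytes was tested as an interaction. Here 0 of the 9 genes passed by edgeR, DESeq2 or limma voom, and 0% of all genes tested were called. At an unadjusted p under 0.05 there were 0 of the 9, against 2.6% of all genes. The endothelial effect less the podocyte effect was −0.85 for Edn1 (SE 0.41, 95% interval −1.76 to 0.07, edgeR adjusted p 1), the term with the smallest unadjusted p of the 9, 0.0668. It ranged from −1.33 without replicate 2 to −0.50 without replicate 3 of knockout endothelium. For Adm it was 0.39 (SE 0.31, −0.31 to 1.08), so the lower levels in the knockouts of both cell types were not shown to differ in size.

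The wider pathways were described from 4 lists, which hold the 9 genes too. Of the listed genes other than these, 1 of 5 tested in the endothelin list, 1 of 6 in the adrenomedullin list, 1 of 10 in the renin-angiotensin list and 3 of 8 in the nitric oxide list were called between the cell types in wild type. Of the 9 genes of the endothelin list, 3 members named above were higher in wild-type endothelium and 1, Mme, was lower, where 8.99% of all genes tested were called. Mme encodes neprilysin, which degrades endothelin and other peptides. Its wild-type levels were 75.7 and 40.1 CPM in endothelium and 488 and 358 CPM in podocytes (log2 fold change −2.87, SE 0.36, edgeR adjusted p 0.000565). Of 10 adrenomedullin and CGRP genes on complete lines (of 13 listed), 3 were higher and 2 lower. The lower ones were Adm and Ackr3, an atypical receptor that takes up adrenomedullin and CXCL12, with wild-type levels of 21.8 and 19.0 CPM in endothelium and 301 and 204 CPM in podocytes (−3.63, SE 0.33, edgeR adjusted p 9.27e-05). Wild-type podocytes thus held more transcript of both genes than endothelium did.

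Of 11 renin-angiotensin and kinin genes on complete lines (of 20 listed), 1 was higher in wild-type endothelium, Ace, and 1 lower, Enpep. Enpep encodes aminopeptidase A, which degrades angiotensin II. Its wild-type levels were 393 and 109 CPM in endothelium and 3574 and 2464 CPM in podocytes (log2 fold change −3.59, SE 0.53, edgeR adjusted p 0.0014). The Enpep value was −4.80 without replicate 2 and −2.94 without replicate 3 of wild-type endothelium. Of 8 nitric oxide, cyclic GMP and natriuretic peptide genes tested (of 19 listed), 1 was higher and 2 were lower in wild-type endothelium. Ddah2, which clears inhibitors of nitric oxide synthase, was higher (1.92, SE 0.22, edgeR adjusted p 0.000332). The natriuretic peptide receptor genes Npr3, a clearance receptor, and Npr1, a guanylate cyclase, were lower (−3.30, SE 0.36 and −1.75, SE 0.25, edgeR adjusted p 0.000245 and 0.00127). In knockout the counts higher and lower in endothelium were 3 and 2 for the endothelin list, 3 and 2 for the adrenomedullin list, 1 and 2 for the renin-angiotensin list and 1 and 4 for the nitric oxide list, where 10.4% of all genes tested were called. Some of these calls lay near the threshold. Npr1 (−0.92, edgeR adjusted p 0.0398) lost its call in knockout under 10 of 18 alternatives. Edn3, the second lower endothelin gene, named here after its values were seen, had an edgeR adjusted p of 0.0467, with 83.1 and 19.98 CPM in knockout podocytes and 15.7 and 7.57 CPM in knockout endothelium. Its call stood with the replicate block (edgeR adjusted p 0.0288), and its values under the other alternatives are not given here. By genotype 0 genes of the 4 lists were called in either cell type by edgeR, DESeq2 or limma voom, and the list medians lay between −0.04 and 0.15 in endothelium and between −0.14 and 0.39 in podocytes. At an unadjusted p under 0.05, the endothelin, adrenomedullin, renin-angiotensin and nitric oxide lists held 0, 1, 0 and 0 genes in endothelium, against 5.49% of all genes, and 0, 2, 1 and 1 in podocytes, against 4.43%.

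Genes with the most similar pattern were found by Pearson's r of log2 CPM over the 8 libraries, among the 10080 genes that averaged 5 CPM or more. The likeness is a description: 8 of the 9 genes differed between cell types, and all genes of a library share its depth and makeup. Edn1 was most like Castor1 (r 0.995) and Plxna2 (0.994). Ednrb was most like Sh3bp5 (0.996) and Gchfr (0.995), and Ece1 like Mndal and Tmem204 (0.998 each). Calcrl was most like Adgrl4 (0.996), an adhesion receptor of endothelium, and Plscr4 (0.995). Ramp2 was most like Adam15 and Hlx (0.999 each), and Ramp3 like Klk8 and Bmyc (0.998 each). Ace was most like Fat4 (0.989) and Nhsl2 (0.985), and Ednra like Lrrc19 (0.98) and Sun1 (0.971). Adm was most like Vamp2 and Scrn3 (0.993 each).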

How the data were processed

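Polyadenylated RNA from sorted mouse kidney cells was sequenced from TruSeq libraries, per the labels' protocols. Per the file headers, the deposited table lists reads counted for each Entrez gene, 1 column per alignment file and library, as raw counts of the authors. The submitters' processing notes name the build mm10 and DESeq2. The aligner, the counter, the annotation and the use of strand were not given in the sources used here. Of 22533 gene lines, 5207 (23.11%) had commas in the description and were cut short, and these were not analysed here. This left cells of 3 deposited columns empty, so those columns were recorded as other values, although every complete line held whole numbers.

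Counts were analysed with edgeR 4.0.16 in R 4.3.3: filterByExpr (16477 genes kept), TMM scaling, 1 mean per group over all 8 libraries, quasi-likelihood F tests and Benjamini-Hochberg adjustment across the genes kept, called under 0.05. Standard errors are the log2 fold change over the square root of F, and intervals are 95% t intervals. Alternatives included DESeq2 1.42.0 and limma 3.58.1. Only the edgeR comparison of knockout with wild-type endothelium was run on simulated counts with known fold changes. Those counts had no cell type difference, and the share of changes recovered is not given here. Counts were scaled per kilobase with GENCODE M21 transcripts. The prior count for log2 CPM was 2.

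The 9 genes, the pathway and marker lists and the naming rule were chosen with earlier results of these data known. The rule names the 9 genes, Emcn, pathway genes past the threshold (by genotype, or up to 4 per list and direction by cell type in wild type), the 2 genes most like each of the 9 and a set of markers. Setting Adm against summed markers and swapping the podocyte replicate numbers were added after seeing the data.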

Additional observations from a re-analysis of the deposited data

How the results depend on the processing

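The 9 genes were refitted under up to 18 alternatives per comparison. In the cell type comparisons, 160 of 162 values in wild type and 158 of 162 in knockout kept direction and side of the threshold, and the others are the Ace and Ednra values given above. By genotype and in the interaction, 0 of the 9 genes passed under any alternative. Fits without 1 library assume that the library left alone in its group varies like the rest.

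Over all genes, DESeq2 called 4 genes by genotype in endothelium and 8 in podocytes, against 1 each by edgeR. The number was 0 in both with library size only or a mean of at least 5 CPM, and in podocytes also with limma voom or a fit to only the 4 libraries compared. The call lost each time was that of Emcn. Scaling by library size alone moved the median of all genes to 0.33 in endothelium, 0.13 in podocytes, 0.18 in the interaction and 0.27 between cell types in knockout, and turned Edn1 in endothelium to 0.02, Ece1 in podocytes to 0.05 and the interaction of Ramp2 to 0.14 and of Ramp3 to 0.21. Other reversals were of values near 0: Ednrb in endothelium (−0.04 with DESeq2 size factors, −0.04 by DESeq2, 0 with no filter), Calcrl and Ramp3 in podocytes by limma voom (−0.01 and −0.02), and the interaction of Ramp2 (0.02 with at least 5 CPM) and Ramp3 (0.07 with at least 5 CPM, 0.13 by limma voom). The cause was not tested. With the median transcript length, levels per kilobase in wild-type endothelium were 785 for Ece1, 319.7 for Ramp2 and 4.76 for Ace.

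The replicate numbers are shared between groups but the labels do not tie them to animals. Deviations of same-numbered libraries correlated at 0.19 (endothelium) and 0.16 (podocytes) between genotypes, and at −0.13 (wild type) and 0.11 (knockout) between cell types. A fit with the replicate block called 1831 genes between cell types in wild type and 2241 in knockout, against 1481 and 1709 without it, and 1, 1 and 0 by genotype and in the interaction, changed no call among the 9 genes and put the interaction of Ramp3 at 0.05. With the podocyte numbers crossed, 1357 and 1578 genes were called.

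Without 1 library at a time, between 769 and 1672 genes were called between cell types in wild type, 960 to 1809 in knockout, 0 to 1 by genotype in each cell type and 0 in the interaction, with 7 to 8 of the 9 genes called between cell types. Log2 fold changes by genotype in endothelium then ranged from −0.79 to 0.04 for Edn1, −0.18 to 0.16 for Ednrb, −0.12 to 0.25 for Ece1, −0.75 to 0.15 for Calcrl, −0.19 to 0.27 for Ramp2, −0.05 to 0.26 for Ramp3 and −0.22 to 0.62 for Ace. In podocytes they ranged from −1 to 0.90 for Ednra, −0.42 to 0.21 for Ece1, −0.32 to 0.29 for Calcrl, −0.09 to 0.34 for Ramp2 and −0.60 to 0.62 for Ramp3. The interaction ranged from −1.44 to 0.46 for Ednra, −0.15 to 0.46 for Ece1, −0.77 to 0.13 for Calcrl, −0.33 to 0.15 for Ramp2, −0.52 to 0.70 for Ramp3, −0.87 to −0.11 for Ednrb and −1.46 to −0.03 for Ace. The lowest counts in a library were 27 for Ace, 33 for Ramp3 and 50 for Ednra, which limits their precision.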
